A study of Mus musculus with 4 samples.

Results

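The genes described here are 43 keratin, cell junction and epithelial regulator genes of the mouse, taken from a list of symbols that sets no threshold on a measured value but was drawn up with earlier results of these data known. All 43 were found among the 48526 gene identifiers of the RNA-seq count files, as 6 keratins, 6 adherens junction genes with Epcam, 7 claudins, 7 other tight junction and polarity genes, 8 desmosome genes, 6 regulators and 3 genes of the matriptase system. Counts were compared between wild-type R1 ESCs (WT), an established line of embryonic stem cells, and ESCs of *Zfp296* CRISPR KO clone 2 (KO2), with 2 libraries per group. KO2 is 1 clone, grown from a single R1 cell after Cas9 and a guide against the first exon of *Zfp296*, so an effect of the knockout and a property of this clone cannot be told apart. Both groups were cultured on gelatine in serum with LIF and with the inhibitors PD0325901 and CHIR99021, and the RNA was isolated in duplicate, so the p-values measure the spread between these libraries, which may be technical. Counts on genes summed to between 2829914 and 4334499 in the WT libraries and to between 7437294 and 7470907 in the KO2 libraries, so that low levels were measured less precisely in WT and depth cannot be told apart from genotype.

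The labels were first checked against the data. *Zfp296* itself had 31 reads counted in each WT library, compared with 416 and 282 in the KO2 libraries, which is 9.44 ± 2.99 and 45.2 ± 10.7 CPM (SD, n = 2). CPM are counts scaled by the TMM-adjusted library total of each sample. Its RNA was thus higher in KO2, at a log2 fold change of 2.32 (adjusted p = 4.64e-05, edgeR), which goes against the direction of a knockout label. The deposited value sums all exons of the gene and does not show a small change in one of them. The authors reported that they checked the KO clones by sequencing and by mass spectrometry of the protein. RNA counts do not measure the protein. The Y-linked genes *Ddx3y*, *Eif2s3y* and *Uty* had between 0 and 1 counts in the WT libraries and between 723 and 2197 in the KO2 libraries. R1 is known as a male line, so the WT libraries lacked Y-linked RNA that a male line would carry, and the groups differed in it. What part this difference has in the results was not tested. WT and KO2 therefore mean the libraries labelled WT and KO2 throughout, and every direction below rests on these labels. Of the 9 ESC markers examined, *Pou5f1* had between 273.4 and 338 CPM and *Nanog* between 569 and 822 CPM over the 4 libraries. All 9 were tested, and 1 had an adjusted p under 0.05 (edgeR), where 5.64% of all tested genes did. This was *Sox2*, which fell from 839 ± 47.2 CPM in WT to 486 ± 4.39 CPM in KO2 (log2 fold change -0.79, adjusted p = 7.82e-05, edgeR). *Dppa5a* lay higher in both KO2 libraries (log2 fold change 0.35, adjusted p = 0.0673, edgeR).

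Epithelial cells are held together by cadherins at adherens junctions, by claudins and occludin at tight junctions, and by desmosomal cadherins at desmosomes, where keratin filaments are anchored. Naive mouse ESCs grow as compact colonies that depend on E-cadherin, while keratin filaments of KRT8 and KRT18 are best known in the embryo from the trophectoderm, its first epithelium. SNAI1, ZEB1 and ZEB2 repress many of these genes, and GRHL2, OVOL1 and the splicing factor ESRP1 favour the epithelial state.

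KO2 ESCs had more RNA of the type II keratin *Krt8*, the desmosomal cadherin *Dsc2*, the desmosomal plaque protein *Dsp* and the claudin *Cldn4* than WT ESCs, and less of the type I keratin *Krt13*. Of the 43 genes, 33 had enough counts to be tested and 10 had not. The libraries of 1 group alone could meet this count filter. Among the genes just named, *Krt8* and *Dsc2* passed it through KO2 and *Krt13* through WT, where each was high. Of the genes not called, *Cldn6*, *Marveld2*, *Pkp3* and *Grhl2* also passed it through KO2, where both libraries lay above WT. The shares and the median below therefore depend partly on this filter, as do those of all tested genes. The quasi-likelihood test of edgeR was run over 12883 genes, and a gene with a Benjamini-Hochberg adjusted p under 0.05 was called, which 5.64% of them were. By this rule 4 of the 33 tested genes were higher in KO2, where 2.6% of all tested genes were, and 1 was lower, where 3.04% of all tested genes were. Both KO2 libraries lay above both WT libraries for 13 of the 33, compared to 25.4% of all tested genes, and below both for 5, compared to 23.4%. The median log2 fold change of the 33 was 0.11, beside 0.01 for all tested genes. At an unadjusted p under 0.05 there were 12 of the 33, compared to 19.4% of all tested genes. Since the list was drawn up with results known, these shares describe the genes and are no independent evidence that they differ from other genes. In bulk RNA, a change in the number of cells that express a gene cannot be told apart from a change in the RNA per cell.

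**Figure D1:**
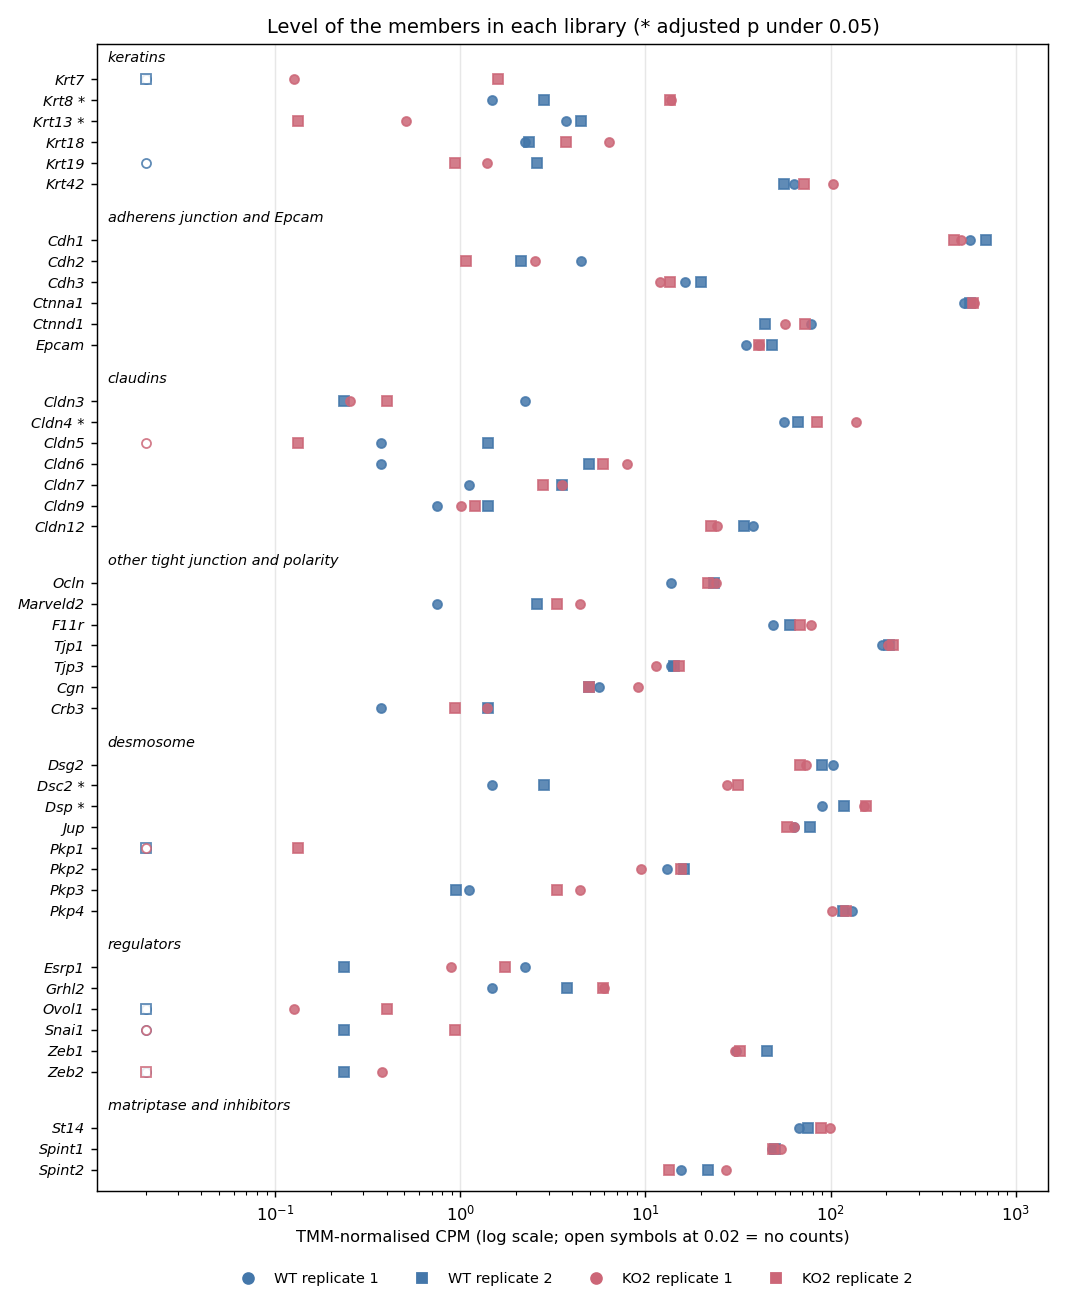
Level of the 43 genes in each library, in TMM-scaled CPM (horizontal log axis), with circles for replicate 1 and squares for replicate 2 of WT (blue) and KO2 (red), and open symbols for libraries without a count. *Dsc2* and *Krt8* show the widest gaps between the blue and red symbols among the genes marked as higher, and *Krt13* is the one marked gene with red symbols on the left.

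Ordered by level per length of exon, *Ctnna1* came first, with 147.5 CPM per kb in WT and 159.7 in KO2. *Ctnna1* encodes alpha-catenin, which links cadherins to actin. *Cdh1*, which encodes E-cadherin, was next at 137.4 and 106.1 CPM per kb. *Krt42*, *Cldn4* and *Tjp1* followed in both groups, with *Krt42* at 34 and 49.4 and *Cldn4* at 33.9 and 61.5 CPM per kb, so that this pair changed places. *Tjp1*, which encodes the scaffold protein ZO-1, had 26.9 CPM per kb in WT and 28.6 in KO2. At the low end, *Pkp1*, *Ovol1*, *Snai1* and *Zeb2* had at most 7 counts in any library.

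Among the keratins, *Krt8* rose, *Krt13* fell, and *Krt18* and *Krt42* did not pass the test. *Krt8* (ENSMUSG00000049382, chr15:101827142-101834773 on the minus strand of mm9) encodes the type II keratin of simple epithelia. In WT, 4 and 12 reads were counted, compared with 108 and 102 in KO2, which is 1.49 and 2.84 beside 13.7 and 13.6 CPM. The KO2 libraries were nearly equal and both lay far above WT, by 2.56 on the log2 scale (SE 0.495, adjusted p = 0.00394, edgeR, 6.32-fold between the means). The call was lost without a filter on low counts (adjusted p = 0.094, edgeR). The log2 fold change was 2.26 without WT replicate 1 and 3.18 without WT replicate 2. Of the 50-base windows in its exons, 44.8% occur once in the genome, and since reads with several matches were left out of the counts, the level of *Krt8* is understated. Per kb of such unique windows it stood at 3.54 CPM in WT and 22.4 in KO2.

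*Krt18* (ENSMUSG00000023043), the type I keratin that pairs with KRT8 in filaments, lies 23.9 kb from *Krt8* on chromosome 15. It had 2.24 and 2.36 CPM in WT and 6.34 and 3.74 CPM in KO2. Both KO2 libraries were above both WT libraries, but the log2 fold change of 1.12 had a 95% interval from -0.18 to 2.43 (adjusted p = 0.341, edgeR). The ratio of *Krt18* to *Krt8*, per kb of exon, was 1.93 and 1.07 in WT and 0.597 and 0.354 in KO2, which did not overlap. Per kb of unique windows it was 0.871 and 0.484 in WT and 0.269 and 0.16 in KO2, so that which of both genes had the higher level in WT depended on the length used. This ratio rests on few counts in WT, and the difference between both genes was not tested.

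*Krt42*, a type I keratin, made up 78.7% to 89% of the keratin RNA per kb of exon in every library. This share is overstated to the extent that the level of *Krt8* is understated. Per kb of unique windows, *Krt42* stood at 43.9 CPM in WT and 63.7 in KO2, beside 3.54 and 22.4 for *Krt8*. Per library, *Krt42* had 63.7 and 56.2 CPM in WT and 102.5 and 71.9 CPM in KO2. KO2 replicate 1 stood well above the others, and the log2 fold change of 0.55 ± 0.175 (SE) missed the threshold (adjusted p = 0.0768, edgeR). Without KO2 replicate 2 it passed, at 0.78 (adjusted p = 0.00415, with a range of 0.00415 to 0.644 over the alternatives). *Krt13* (ENSMUSG00000044041, chr11:99978641-99982880 on the minus strand of mm9), the type I keratin of stratified epithelia that do not cornify, went the other way, with 10 and 19 reads counted in WT but 4 and 1 in KO2. This corresponds to 3.73 and 4.49 CPM in WT and 0.507 and 0.134 CPM in KO2. The summed counts give a level 12.9 times higher in WT, with a counting interval (95%) of 4.93 to 42.6, and a log2 fold change of -3.6 ± 0.853 (SE, adjusted p = 0.0162, edgeR). Its call was lost when any 1 of the 4 libraries was left out, with adjusted p-values of 0.0777 to 0.157 and a range of 0.00265 to 0.157 over the alternatives. *Krt19* and *Krt7* were not tested, with at most 11 and 12 counts in any library.

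The start regions of these keratins are shown to compare the genes that differed with the filament partner of *Krt8*. They span 250 bases before to 50 bases after the annotated start and come from RefSeq on GRCm38, where *Krt8* is at chr15:102004293-102004592 (minus strand), *Krt18* at chr15:102027966-102028265 (plus strand) and *Krt13* at chr11:100121517-100121816 (minus strand, the first of 2 listed starts). Capitals mark matches on either strand to 6 motifs. The E-box searched was CACCTG, the letters that SNAI1, ZEB1 and ZEB2 recognise. The Grainyhead motif was AACCNGTT, that of AP-1 was TGANTCA and that of TEAD factors was CATTCC. A GC box was any run of the letters GGGCGG, and a TATA match was any run of the letters TATAAA.
Krt8: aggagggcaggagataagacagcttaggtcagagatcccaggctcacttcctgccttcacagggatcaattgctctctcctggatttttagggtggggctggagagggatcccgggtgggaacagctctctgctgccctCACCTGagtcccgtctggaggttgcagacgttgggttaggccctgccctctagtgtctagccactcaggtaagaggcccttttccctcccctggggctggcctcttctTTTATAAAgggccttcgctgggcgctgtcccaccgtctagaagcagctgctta
Krt18: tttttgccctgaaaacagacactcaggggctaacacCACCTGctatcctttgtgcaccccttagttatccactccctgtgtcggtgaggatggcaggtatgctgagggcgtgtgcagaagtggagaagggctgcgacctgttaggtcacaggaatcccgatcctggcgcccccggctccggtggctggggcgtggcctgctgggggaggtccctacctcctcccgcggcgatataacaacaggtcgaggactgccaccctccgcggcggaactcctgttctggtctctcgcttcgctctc
Krt13: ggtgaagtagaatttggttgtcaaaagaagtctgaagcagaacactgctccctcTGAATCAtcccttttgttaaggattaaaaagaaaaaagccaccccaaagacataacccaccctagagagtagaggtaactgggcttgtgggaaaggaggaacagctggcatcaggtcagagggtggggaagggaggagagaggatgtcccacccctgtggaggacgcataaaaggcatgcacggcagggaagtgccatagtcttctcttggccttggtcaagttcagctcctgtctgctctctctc
The windows of *Krt8* and *Krt18* each hold 1 E-box. That of *Krt8* also holds overlapping TATA matches, 1 on each strand, which begin at -3 and -1 relative to the annotated start and so span it. The window of *Krt13* shown holds 1 AP-1 match, and that of its other listed start, not shown, holds 2. RefSeq windows were matched for 27 of the 43 genes, with 40 windows in all. An E-box was found in 52.5% of them and in 20.2% of the 32851 windows of all genes, and a GC box in 65% compared to 35.7%. The shares were 15% and 7.81% for AP-1, 12.5% and 14.7% for TEAD, 12.5% and 13.6% for TATA, and 5% and 2.09% for Grainyhead. The median GC content was 60.7% in the windows of these genes and 52.7% in all windows.

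**Figure D2:**
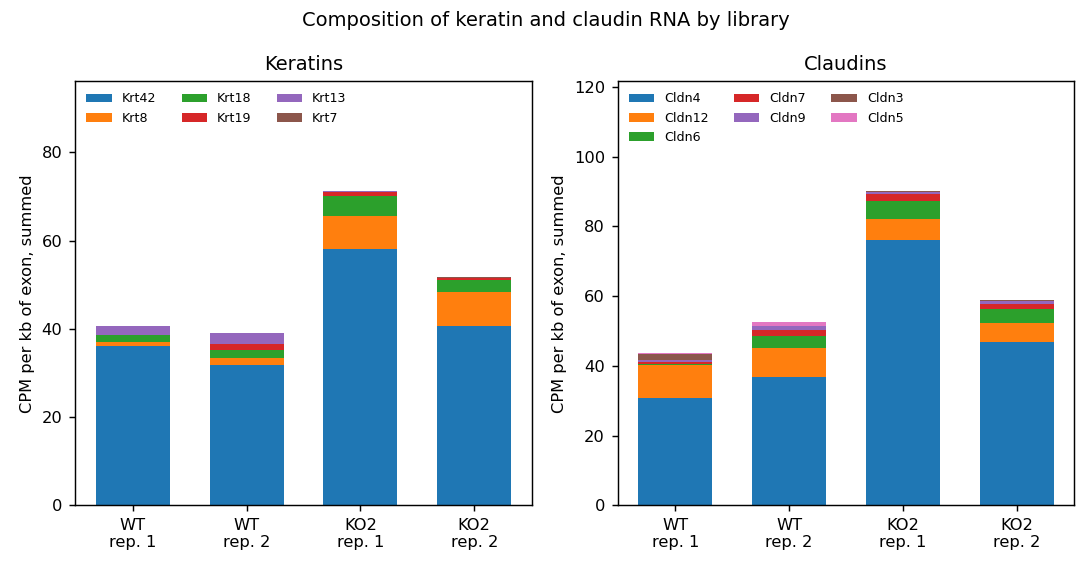
Keratin (left) and claudin (right) RNA in each library, stacked by gene in CPM per kb of exon. *Krt42* and *Cldn4* form most of every bar, and the *Krt8* segment is thicker in both KO2 libraries than in both WT libraries. The level of *Krt8* is understated on this scale.

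Claudins form the paired strands that seal tight junctions. Of the 7 claudins, 4 were tested and 1, *Cldn4*, was called as higher in KO2, where 2.6% of all tested genes were. *Cldn4* (ENSMUSG00000047501, a gene with a single exon at chr5:135420996-135422804 on the minus strand of mm9) had 55.9 and 66.6 CPM in WT and 137.7 and 84.75 CPM in KO2. Both KO2 libraries were above WT but differed widely from each other, and the log2 fold change was 0.85 ± 0.191 (SE, adjusted p = 0.0115, edgeR). The call was lost without KO2 replicate 1, where the log2 fold change dropped to 0.46 (adjusted p = 0.253), and without either WT library (adjusted p = 0.169 and 0.0554), with a range of 2.71e-07 to 0.302 over the alternatives. *Cldn4* made up 70.9% and 70.1% of the claudin RNA per kb in WT and 84.5% and 79.5% in KO2. Its RefSeq window (GRCm38, chr5:134946885-134947184, minus strand) is shown, as that of the one claudin called, with the same motifs in capitals.
Cldn4: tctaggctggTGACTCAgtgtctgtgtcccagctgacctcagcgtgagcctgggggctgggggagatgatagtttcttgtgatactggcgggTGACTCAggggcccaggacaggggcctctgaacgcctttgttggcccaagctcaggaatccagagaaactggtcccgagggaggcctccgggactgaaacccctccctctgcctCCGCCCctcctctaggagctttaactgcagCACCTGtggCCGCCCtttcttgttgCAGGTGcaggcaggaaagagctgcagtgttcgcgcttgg
It holds 2 E-box matches, one on each side of the start, 2 AP-1 matches and 2 GC boxes.

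The other claudins were not called. *Cldn12*, a claudin widely expressed across tissues, had 38 and 34.3 CPM in WT and 24.2 and 22.5 CPM in KO2. It was lower in both KO2 libraries, by a log2 fold change of -0.62 (95% interval -1.07 to -0.18, adjusted p = 0.0994, edgeR). *Cldn6*, a claudin of embryonic epithelia, had 0.373 and 4.96 CPM in WT and 7.99 and 5.88 CPM in KO2, with WT replicate 1 resting on 1 count (log2 fold change 1.15, adjusted p = 0.31, edgeR). Without this library its log2 fold change was 0.48, and without WT replicate 2 it was 4.15. *Cldn7* overlapped between the groups, at 2.33 ± 1.72 and 3.18 ± 0.526 CPM (SD, n = 2). *Cldn3*, *Cldn5* and *Cldn9* were not tested, with at most 9 counts in any library, although *Cldn3* lies 39.3 kb from *Cldn4* and *Cldn9* 138 bases from *Cldn6*.

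The desmosome genes moved unevenly. Of 7 tested, 2 were higher in KO2, where 2.6% of all tested genes were, and none was lower, where 3.04% were. DESeq2 also called none of them lower. At an unadjusted p under 0.05, 3 were higher and 1 was lower, compared to 19.4% of all tested genes in either direction. *Dsc2* (ENSMUSG00000024331, desmocollin-2, chr18:20189134-20218055 on the minus strand of mm9) had the largest increase of the tested genes described here. The WT libraries held 4 and 12 of its reads and the KO2 libraries 218 and 237, which is 1.49 and 2.84 beside 27.6 and 31.7 CPM. The groups lay far apart, with a log2 fold change of 3.67 ± 0.401 (SE, adjusted p = 1.23e-05, edgeR, 13.7-fold between the means). The call was made under each of the 10 alternatives that tested the gene, with adjusted p-values of 7.21e-15 to 0.0231.

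*Dsg2*, which encodes desmoglein-2, the cadherin that pairs with desmocollin-2 in the desmosome, had 103.2 and 90.3 CPM in WT and 73.3 and 68.4 CPM in KO2. It lay lower in both KO2 libraries but was not called (log2 fold change -0.44, 95% interval -0.75 to -0.14, adjusted p = 0.0823, edgeR). Per kb of exon, the ratio of *Dsc2* to *Dsg2* was 0.0226 and 0.0492 in WT and 0.591 and 0.725 in KO2. The groups did not overlap in this ratio, but it rests on few counts of *Dsc2* in WT and mostly repeats the change in *Dsc2*. The difference between *Dsc2* and *Dsg2* was not tested.

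*Dsp* (ENSMUSG00000054889, chr13:38243197-38290446 on the plus strand of mm9) encodes desmoplakin, which ties keratin filaments to the desmosome. It had 89.8 and 117.9 CPM in WT and 150.5 and 155.5 CPM in KO2. The KO2 libraries were close to each other and above WT, with a log2 fold change of 0.55 ± 0.141 (SE, adjusted p = 0.0263, edgeR). Without WT replicate 1 it was 0.38 and no longer called (adjusted p = 0.203), nor was it called without KO2 replicate 2 (adjusted p = 0.0598), and the range over the alternatives was 0.00277 to 0.624. The RefSeq window of *Dsp* (GRCm38, chr13:38151044-38151343, plus strand) is shown as that of the plaque gene that rose.
Dsp: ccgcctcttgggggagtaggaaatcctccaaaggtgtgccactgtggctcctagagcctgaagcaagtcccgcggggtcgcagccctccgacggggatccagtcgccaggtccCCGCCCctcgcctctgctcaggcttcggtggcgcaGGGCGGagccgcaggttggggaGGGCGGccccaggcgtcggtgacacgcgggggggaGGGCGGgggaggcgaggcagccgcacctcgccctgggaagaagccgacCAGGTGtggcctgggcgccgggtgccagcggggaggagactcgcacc
It holds 4 GC boxes before the start and 1 E-box after it, with a GC content of 73% compared to 58% for *Krt8* and 50.3% for *Krt13*.

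Among the plakophilins, armadillo proteins of the plaque, *Pkp3* had 1.12 and 0.945 CPM in WT and 4.44 and 3.34 CPM in KO2. Its log2 fold change of 1.92 had a wide interval from 0.32 to 3.52 and was not called (adjusted p = 0.167, edgeR). *Pkp4*, with 123 ± 9.67 and 111.5 ± 12.9 CPM, and *Pkp2*, with 14.6 ± 2.14 and 12.5 ± 4.24 CPM (SD, n = 2), overlapped between WT and KO2. *Jup*, which encodes plakoglobin, also overlapped, at 70.4 ± 10 and 60.8 ± 4.18 CPM (SD, n = 2). *Pkp1* had 1 count in 1 KO2 library and none elsewhere.

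**Figure D3:**
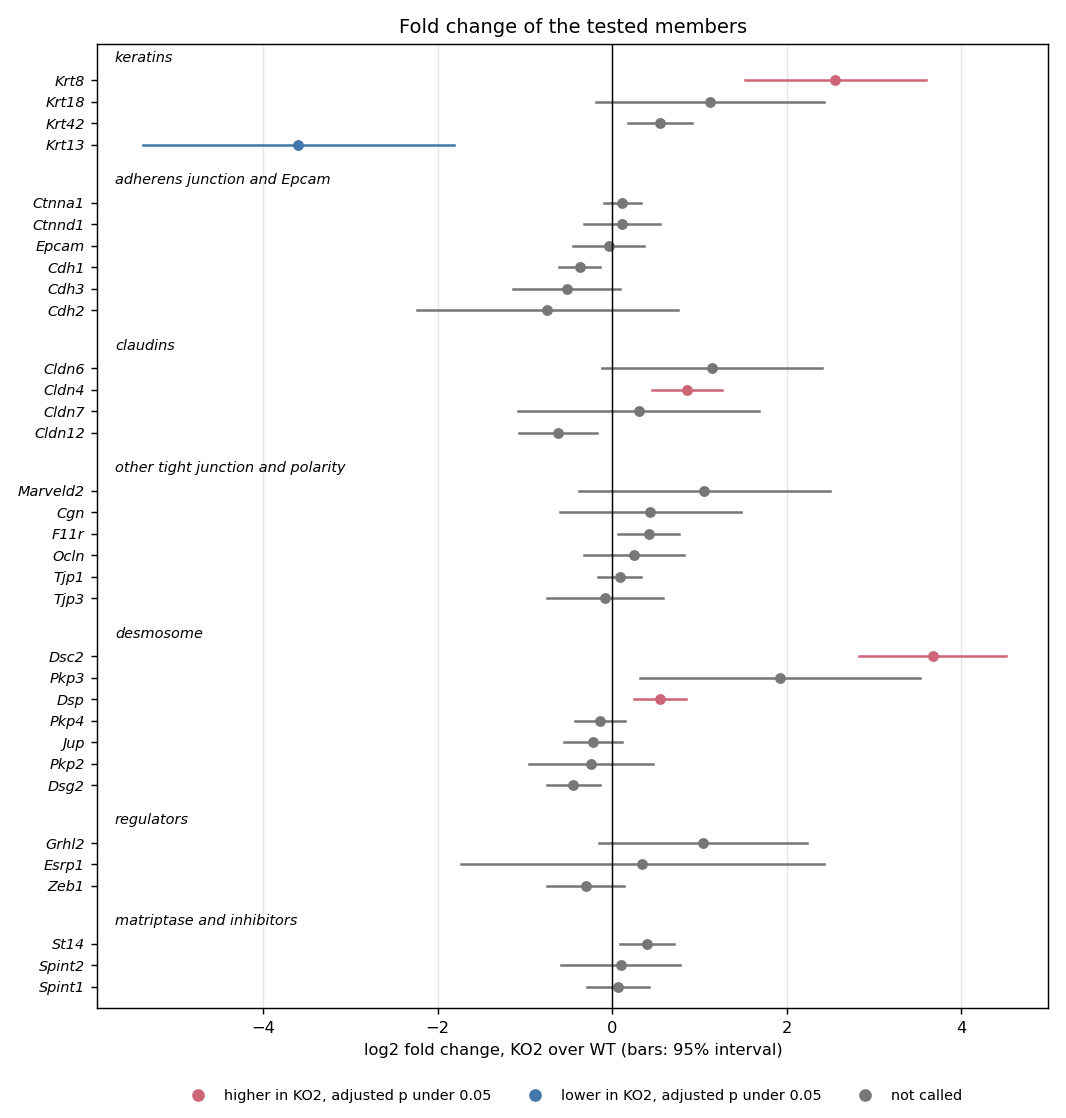
Log2 fold change of KO2 over WT for the 33 tested genes by group (points) with 95% intervals (bars), in red where higher and in blue where lower at an adjusted p under 0.05. *Dsc2* and *Krt8* lie at 3.67 and 2.56 and *Krt13* at -3.6, while the adherens junction genes lie between -0.74 and 0.11.

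None of the 6 adherens junction genes was called by edgeR, where 5.64% of all tested genes were. An unadjusted p under 0.05 was found for 1, compared to 19.4% of all tested genes. That gene was *Cdh1*, with 567 and 690 CPM in WT and 505 and 466 CPM in KO2. Both KO2 libraries lay below both WT libraries, with a log2 fold change of -0.37 ± 0.112 (SE, adjusted p = 0.0575, edgeR). *Cdh1* passed the threshold with DESeq2 (adjusted p = 0.0331), with RLE normalization (adjusted p = 0.0446) and without KO2 replicate 1 (adjusted p = 0.0453), in a range of 0.0331 to 0.9999 over the alternatives. *Cdh3*, which encodes P-cadherin and lies 46.4 kb from *Cdh1* on chromosome 8, had 16.4 and 19.9 CPM in WT and 11.9 and 13.6 CPM in KO2 (log2 fold change -0.52, 95% interval -1.14 to 0.09, adjusted p = 0.348, edgeR).

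*Cdh2*, which encodes N-cadherin, the cadherin of mesenchymal and neural cells, was near the limit of detection, with 12 and 9 reads in WT compared with 20 and 8 in KO2. The ratio of *Cdh1* to *Cdh2* per kb of exon ranged from 224 to 572 in WT and from 351 to 768 in KO2, and so overlapped. The catenins *Ctnna1* and *Ctnnd1* had log2 fold changes of 0.11 and 0.11, with intervals of -0.1 to 0.33 and -0.33 to 0.55 (adjusted p = 0.6 and 0.835, edgeR). *Epcam*, an adhesion molecule of epithelia and ESCs, had 35 and 48.4 CPM in WT and 41.1 and 41.2 CPM in KO2, with both KO2 values inside the WT range.

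The 6 tested genes among the other tight junction and polarity genes were likewise called by neither edgeR nor DESeq2. An unadjusted p under 0.05 was found for 1 of them, compared to 19.4% of all tested genes. This was *F11r*, which encodes the adhesion molecule JAM-A, at 48.8 and 60 CPM in WT and 78.5 and 67.9 CPM in KO2 (log2 fold change 0.42, 95% interval 0.07 to 0.76, adjusted p = 0.163, edgeR). *Ocln*, which encodes occludin, overlapped at 18.6 ± 6.79 and 22.9 ± 1.73 CPM (SD, n = 2). *Marveld2* encodes tricellulin, the occludin relative found where several cells meet, and lies 43.2 kb from *Ocln*. In WT 2 and 11 reads were counted, compared with 35 and 25 in KO2 (log2 fold change 1.05, adjusted p = 0.435, edgeR). The scaffold genes *Tjp1*, *Tjp3* and *Cgn* had log2 fold changes of 0.09, -0.08 and 0.44, and the groups overlapped for each of them. *Crb3*, a polarity gene, had at most 11 counts in any library.

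Of the regulators, *Zeb1* had the highest level per kb, and stood at 30.9 and 45.4 CPM in WT and 30.4 and 32.5 CPM in KO2, which overlapped (log2 fold change -0.3, adjusted p = 0.478, edgeR). *Grhl2*, which activates junction genes in epithelia, was counted 4 and 16 times in WT compared with 47 and 44 times in KO2. Its level was higher in both KO2 libraries, at 5.96 and 5.88 compared to 1.49 and 3.78 CPM, but it was not called (log2 fold change 1.04, 95% interval -0.15 to 2.23, adjusted p = 0.332, edgeR). *Esrp1* was counted 6 and 1 times in WT compared with 7 and 13 times in KO2, so that its levels overlapped. *Snai1*, *Ovol1* and *Zeb2* were not tested, and a difference in them was not detectable at this depth, where 3 counts correspond to 1.12 and 0.709 CPM in the WT libraries and to 0.38 and 0.401 CPM in the KO2 libraries.

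Matriptase, a serine protease of the epithelial surface, is encoded by *St14*, which had 67.5 and 75.1 CPM in WT and 99.4 and 89.2 CPM in KO2. The groups did not overlap, but the log2 fold change of 0.4 (95% interval 0.09 to 0.7) was not called (adjusted p = 0.13, edgeR). Its inhibitors *Spint1* and *Spint2*, both Kunitz-type proteins, overlapped between the groups, at 49.1 ± 1.43 and 51.4 ± 3.24 CPM and at 18.7 ± 4.3 and 20.4 ± 9.92 CPM (SD, n = 2).

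**Figure D4:**
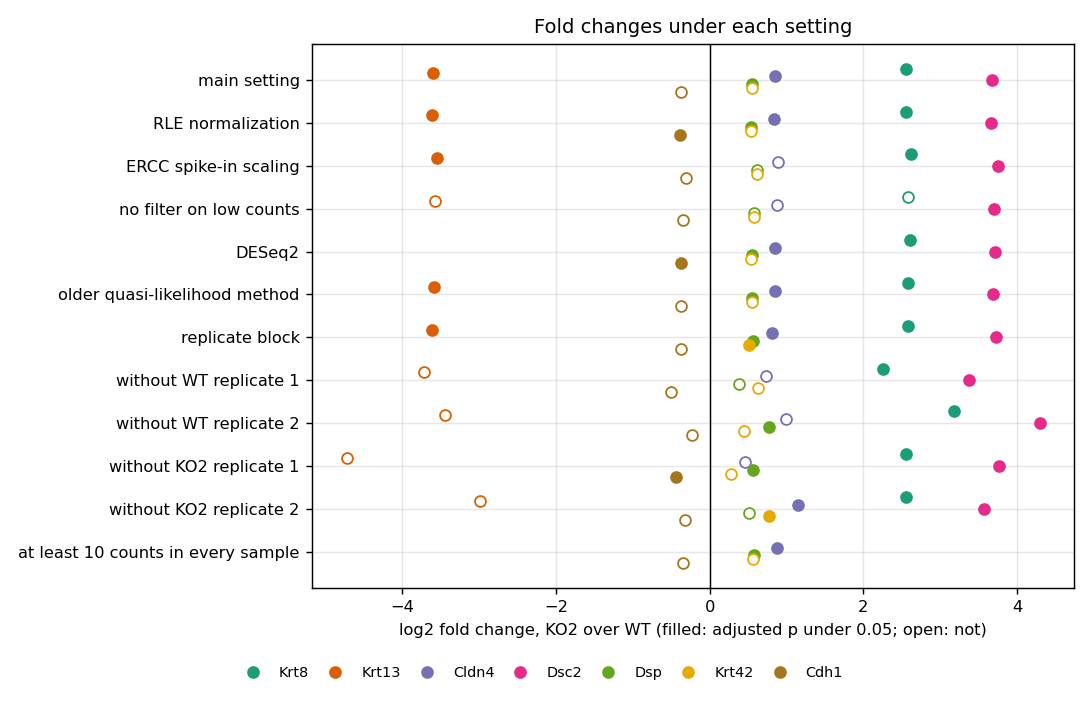
Log2 fold change (horizontal axis) of the 5 called genes and of *Krt42* and *Cdh1* under each setting (vertical axis), with filled points at an adjusted p under 0.05 and open points otherwise. The *Dsc2* points are filled in every setting in which it was tested, while *Krt13* is open in each of the 4 settings without 1 library.

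A further list of 132 related genes was examined beside these, with other keratins, intermediate filaments, claudins, junction and polarity genes, epithelial regulators and membrane serine proteases. Of these, 58 were tested, and 4 were higher in KO2 (6.9%, compared to 2.6% of all tested genes), a share that describes a list also drawn up with results known. None was lower by edgeR or by DESeq2. At an unadjusted p under 0.05 there were 15 of the 58, with 11 higher and 4 lower, compared to 19.4% of all tested genes. *Mpdz*, which encodes a scaffold of many PDZ domains at tight junctions, had 6.71 and 9.45 CPM in WT and 40.3 and 52.5 CPM in KO2 (log2 fold change 2.48 ± 0.274, SE, adjusted p = 1.43e-05, edgeR). The call was made under all 11 alternatives. *Inadl*, the gene of its relative PATJ, had 24.2 and 14.9 CPM in WT and 44 and 46.4 CPM in KO2 (log2 fold change 1.25, adjusted p = 0.00302, edgeR), and 0.051 without WT replicate 2, in a range of 2.48e-05 to 0.139.

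*Prkcz*, which encodes an atypical protein kinase C of the polarity complex, had 20.9 and 19.9 CPM in WT and 40.7 and 36.6 CPM in KO2 (log2 fold change 0.93, adjusted p = 0.0163, edgeR). It was no longer called without WT replicate 1, without WT replicate 2 or without KO2 replicate 1 (adjusted p = 0.0654, 0.0716 and 0.0761). It was also lost with DESeq2 (adjusted p = 0.0522), with ERCC scaling and without a filter on low counts, so that 5 of 11 alternatives called it, in a range of 0.00711 to 0.226. *Mpdz*, *Inadl* and *Prkcz* all lie on chromosome 4, where the median log2 fold change of 820 tested genes was -0.02. The fourth gene was the cadherin *Cdh20*, with 2.61 and 4.73 CPM in WT and 17.3 and 24.3 CPM in KO2 (log2 fold change 2.41, adjusted p = 0.00142, edgeR). Of the 25 other keratins on the list, 17 had no count in any library and none could be tested, and the same held for 6 of the 14 other claudins.

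Markers of other cell types were read beside these results. Of 9 matched trophectoderm markers, 3 were tested and 1 was called as higher, where 2.6% of all tested genes were. This was *Gata2*, which had 5.59 and 7.32 CPM in WT and 18.8 and 20.5 CPM in KO2 (log2 fold change 1.56, adjusted p = 0.0107, edgeR). The summed level of the 9 markers was 34.3 and 34 CPM in WT and 53.6 and 56 CPM in KO2. Most of this sum came from *Gata2* and from *Tead4*, at 21.5 ± 3.93 CPM (SD, n = 2) in WT compared with 27.5 ± 3.76 in KO2 (adjusted p = 0.425, edgeR). *Eomes* overlapped between the groups (log2 fold change -0.25, adjusted p = 0.878, edgeR), and *Gata3*, not tested, had 1.49 and 0.945 CPM in WT and 0.634 and 0.267 CPM in KO2. The defining marker *Cdx2* had no count in WT and 2 and 8 counts in KO2, *Elf5* had none in WT and 9 and 5 in KO2, and *Plac1* had none in any library. The part of these markers in the results was not tested. Of 9 primitive endoderm markers, 5 were tested and none was called by edgeR, where 5.64% of all tested genes were. Of the 5 tested, 1 had an unadjusted p under 0.05, compared to 19.4% of all tested genes. All 9 together summed to 307 and 319 CPM in WT and 305 and 303 CPM in KO2. Nearly all of this sum was *Lama1* and *Col4a1*, while the defining markers were low, with 7 and 3 reads of *Gata4* in WT compared with 25 and 10 in KO2, and 0 and 1 reads of *Gata6* in WT compared with 2 and 8 in KO2. Fibroblast markers summed to between 9.32 and 22.2 CPM in WT and between 10.7 and 14.3 CPM in KO2, with *Postn*, *Lum* and *Dcn* at 0 in every library.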

How the data were processed

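RNA was depleted of ribosomal RNA and made into strand-specific libraries. Reads were mapped by the authors to mm9 with HISAT2 and counted per Ensembl gene with HTSeq, and the authors deposited raw counts for each library without normalization. Tool versions, the annotation and the strand setting are not given in the sources used here. HTSeq's 5 summary rows, which name no gene and held 52.88% to 58.77% of all counts (35.61% to 40.38% not uniquely aligned), and 92 ERCC spike-in rows were left out of the library sizes. Identifiers were matched to symbols and NCBIM37 (mm9) coordinates for 32782 of 48526 genes.

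Counts were normalized with TMM, filtered with filterByExpr (minimum count 10, minimum total 15), and tested with glmQLFit (legacy=FALSE) and glmQLFTest in edgeR 4.0.16 (R 4.3.3), with group as the only term and adjustment over 12883 genes. Standard errors were taken from the fold change and the F statistic. The biological coefficient of variation was 0.1496. CPM are TMM-scaled, and levels per kb use the merged exons of each gene. Windows of 50 bases were matched exactly to NCBIM37 on both strands. The fit was tested on simulated counts. Intervals on counts cover counting error only. The genes and lists were chosen with earlier results of these data known. All 43 genes were accounted for, and called genes of the lists were named. Alternatives were RLE and ERCC scaling, 2 filters, DESeq2 1.42.0, the older quasi-likelihood method, a replicate block and leaving out each library.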

Additional observations from a re-analysis of the deposited data

How the results depend on the processing

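The 4 genes higher and 1 lower in KO2 among the 43 became 1 and 0 without a filter on low counts, 2 and 0 with at least 10 counts in every library (where *Krt8*, *Krt13* and *Dsc2* were no longer tested), 2 higher with ERCC scaling, and 2 lower with RLE normalization. Leaving out 1 library gave 2 to 4 higher and 0 to 1 lower. Of the related genes, 1 was higher without a filter, 2 to 4 without 1 library, and 0 were lower in all of these. Over all tested genes, 335 were higher and 391 lower. These counts were 90 and 73 with ERCC scaling, 29 and 32 without a filter, 192 higher with DESeq2, and 121 to 340 and 149 to 351 without 1 library. Of 387 values of single genes under the alternatives, 358 stayed on the same side of the threshold with any call in the same direction, 24 were no longer called, 5 became called and 0 called values changed sign. Most of the 387 values belonged to genes not called in the main setting, and all 24 lost calls fell on the genes called there. The 358 therefore say little about how stable the calls were. Without a filter the median log2 fold change of all genes was higher by 0.11, and by 0.08 with ERCC scaling. The labels give the replicates a number and do not say whether same-numbered libraries were prepared together. Their deviations correlated at -0.00658, which does not settle this. ERCC counts were 0.089% of the gene counts in WT and 0.094% in KO2 for replicate 1, and 0.073% and 0.07% for replicate 2. A pairing was not tested further. With the replicate block, 5 of the 43 genes were higher, *Krt42* being added (adjusted p = 0.0319), and 1 was lower, and 470 and 476 of all genes were called. The 1 lower gene by DESeq2 was *Cdh1*, since DESeq2 gave no adjusted p for *Krt13*. The cause of these shifts was not tested. Depth limits the 10 untested genes, which had at most 12 counts in any library.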

Other observations

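Other intermediate filaments than keratins were measured beside them. Of 12 such genes, 11 were tested and none was called by edgeR. An unadjusted p under 0.05 was found for 4 of them, compared to 19.4% of all tested genes. *Prph*, which encodes the neuronal filament protein peripherin, had 2.24 and 0.236 CPM in WT and 5.2 and 7.62 CPM in KO2 (log2 fold change 2.62, 95% interval 1.01 to 4.23, adjusted p = 0.0514, edgeR). *Des*, which encodes desmin of muscle, had 2.98 and 3.07 CPM in WT and 6.59 and 9.36 CPM in KO2 (adjusted p = 0.148, edgeR). *Nefl*, a neurofilament gene, lay lower in both KO2 libraries, at 19.2 and 17 compared to 35.4 and 26.5 CPM (adjusted p = 0.0801, edgeR). *Vim*, which encodes vimentin of mesenchymal cells, overlapped between the groups, with a log2 fold change of -0.31 (95% interval -0.79 to 0.17).

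Of 17 further epithelial regulators, 7 were tested and none was called by edgeR. An unadjusted p under 0.05 was found for 1, compared to 19.4% of all tested genes. That gene was *Klf5*, a transcription factor of ESCs and epithelia, with 32 and 28.1 CPM in WT and 18.3 and 21 CPM in KO2 (log2 fold change -0.61, 95% interval -1.1 to -0.12, adjusted p = 0.153, edgeR). *Grhl3*, a relative of *Grhl2*, had 43.2 and 47.3 CPM in WT and 53.3 and 49.9 CPM in KO2 (log2 fold change 0.18, adjusted p = 0.621, edgeR). *Prss8*, which encodes prostasin, a partner protease of matriptase, had 0.373 and 2.36 CPM in WT and 4.69 and 4.81 CPM in KO2 (log2 fold change 1.58, 95% interval 0.12 to 3.04, adjusted p = 0.219, edgeR).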
